A study of Mus musculus with 24 samples.

Results

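The JNK and p38 MAP kinases are encoded by 7 mouse genes, Mapk8, Mapk9 and Mapk10 for JNK and Mapk11, Mapk12, Mapk13 and Mapk14 for p38. Their rows were taken by symbol from a table of gene counts for 47937 genes in 24 RNA-seq libraries, 3 in each of 8 conditions of mouse embryonic fibroblasts (MEF). The group was selected on the measured levels of Mapk10, almost silent in WT and high in 6KO1 and in E1E2 G9Gl, so the levels of Mapk10 are described here without a test. The parental clone carries a conditional allele of Eset1 (Setdb1) and a Cre recombinase that 4-hydroxytamoxifen (4-OHT, 1 µM) activates, and all 8 conditions share this allele. WT is that clone without 4-OHT, and E1 is the same clone after 4-OHT, with Eset1 deleted. E2 is a clone also mutated for Eset2 (Setdb2), without 4-OHT, and E1E2 is that clone after 4-OHT. E1 S1S2 lacks Eset1, Suv39h1 and Suv39h2, and further mutation of Eset2, G9a (Ehmt2) and Glp (Ehmt1) gave 6KO1. E1E2 G9Gl lacks Eset1, Eset2, G9a and Glp, and further mutation of Suv39h1 and Suv39h2 gave 6KO2. The 4 last-named lines were all treated with 4-OHT, and all 6 genes encode histone H3 lysine 9 methyltransferases. The further mutations were made before 4-OHT was given, and untreated cells of these lines were not among the samples. Each line is 1 clone, so a difference between clones and an effect of the mutations cannot be told apart, and 4-OHT exposure cannot be told apart from loss of Eset1.

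The libraries held from 24737307 to 37419816 counts. Levels are given in CPM, counts scaled to a common total of gene reads per library after correction by the TMM factors of edgeR. The p-values of edgeR rest on the spread between libraries of the same condition, estimated for each gene over all 24 libraries together. The 3 libraries of a condition were sequenced as biological replicates. Of 23 pairs of a targeted gene and a line mutated for it, the RNA of 21 fell against WT; it did not for Suv39h2 in E1 S1S2 and 6KO1. WT replicate 2 stood apart from the other WT libraries, with a chi-square per gene of 68.3 and 57.0 against them, where those differed by 5.04. Counts of the pathway lists given for 6KO1, E1E2 G9Gl and 6KO2 are given also without it where they differ. Of 10 fibroblast markers, 9 had counts in WT, with a summed level of 5716 to 6819 CPM, against 3033 to 3264 CPM in 6KO1, 7589 to 8070 CPM in E1E2 G9Gl and 3988 to 4222 CPM in 6KO2, and Lum had no count in these 4 conditions. Vim, Col1a1, Col1a2 and Col3a1 held most of each sum, and single markers differed. Thy1, Pdgfra and Dcn were at 7.86, 5.09 and 1.43 CPM in WT and at 0.012, 0.123 and 0.023 CPM in 6KO1. S100a4 was at 109 ± 36.9 CPM in WT and 141 ± 14.3 CPM in 6KO1. Thy1, Pdgfra and Dcn were at 16.3, 0.542 and 0.082 CPM in E1E2 G9Gl and at 0.070, 3.02 and 5.46 CPM in 6KO2. In bulk RNA, fewer cells that express a gene and less RNA per cell cannot be told apart.

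JNK and p38 kinases are the stress-activated branches of the MAP kinase system. Stress and cytokine signals activate MAP3K enzymes, these phosphorylate MAP2K enzymes, and the MAP2K enzymes activate JNK or p38 by phosphorylating a threonine and a tyrosine in the activation loop. In fibroblasts these kinases are best known for relaying ultraviolet light, osmotic shock and inflammatory cytokines to transcription factors such as c-Jun and ATF2. Mapk8 (JNK1) and Mapk9 (JNK2) are expressed in most tissues, whereas Mapk10 (JNK3) is known mainly from brain, heart and testis. Mapk14 (p38 alpha) and Mapk11 (p38 beta) are broadly expressed, Mapk12 (p38 gamma) is best known from skeletal muscle, and Mapk13 (p38 delta) from epithelia and endocrine tissue.

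The coding sequence around the doubly phosphorylated site is shown because it separates the 2 families. Each stretch is read 5′ to 3′ on the coding strand of the GENCODE M21 transcripts (GRCm38), within 1 coding exon, and capitals mark the codons of the threonine, the residue between and the tyrosine.
Mapk8 (chr14:33392994-33393020, minus strand): tttatgatgACGCCTTATgtggtgact
Mapk9 (chr11:49872821-49872847, plus strand): tttatgatgACTCCCTATgtggtaact
Mapk10 (chr5:102989672-102989698, minus strand): ttcatgatgACTCCGTATgtggtgacg
Mapk11 (chr15:89145857-89145883, minus strand): gaggagatgACCGGATATgtggccaca
Mapk12 (chr15:89134667-89134693, minus strand): agtgagatgACAGGATATgtggtaacc
Mapk13 (chr17:28776335-28776361, plus strand): actgagatgACGGGCTATgtggtgacc
Mapk14 (chr17:28728390-28728416, plus strand): gatgagatgACAGGCTACgtggctacc
The middle codon is for proline in the 3 JNK genes and for glycine in the 4 p38 genes. The threonine is codon 183 in Mapk8, Mapk9 and Mapk12, codon 221 in Mapk10 and codon 180 in the remaining 3 genes. Aligned coding bases were identical at 75.5% to 76.4% between JNK genes and at 66.3% to 73.3% between p38 genes, and no pair shared a stretch of 75 bases, the read length. Mapk11 and Mapk12 are neighbours on chromosome 15, 1782 bases apart, and Mapk13 and Mapk14 are neighbours on chromosome 17, 20890 bases apart. No exon of a member overlapped an exon of another annotated gene.

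Mapk10 was read at 0, 1 and 1 counts in the 3 WT libraries and at 678, 645 and 610 counts in the 3 libraries of 6KO1. E1E2 G9Gl gave 455, 433 and 400 counts. The 6KO2 line, which was made from E1E2 G9Gl, gave 63, 52 and 63 counts. These 9 libraries all lay above every library of the other 5 conditions, in which the highest count was 16, and those of 6KO2 lay below those of 6KO1 and E1E2 G9Gl. The mean level in 6KO1 was 23.1 ± 0.80 CPM (SD, n = 3), that in E1E2 G9Gl 19.9 ± 0.55 CPM and that in 6KO2 2.56 ± 0.20 CPM.

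The other conditions stayed close to 0. Mapk10 had 16, 5 and 13 counts in E1, 7, 1 and 8 in E2, 7, 1 and 5 in E1E2, and 3, 0 and 3 in E1 S1S2. With 2 counts in all WT libraries together, the ratio to WT was 885 for 6KO1 (95% exact interval of the counts 245 to 7313), 761 for E1E2 G9Gl (210 to 6291) and 98.2 for 6KO2 (26.8 to 817). These intervals cover counting error only, and without WT replicate 1, the library at 0, the 3 ratios were 611, 525 and 67.8. Between the mutant lines the ratio rested on more counts. It was 9.02 (7.73 to 10.6) for 6KO1 over 6KO2, 7.75 (6.62 to 9.12) for E1E2 G9Gl over 6KO2 and 1.16 (1.08 to 1.25) for 6KO1 over E1E2 G9Gl. These intervals too cover counting error only and leave out the spread between libraries. As Mapk10 selected the group, they describe its counts and are no test of a difference.

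**Figure D1:**
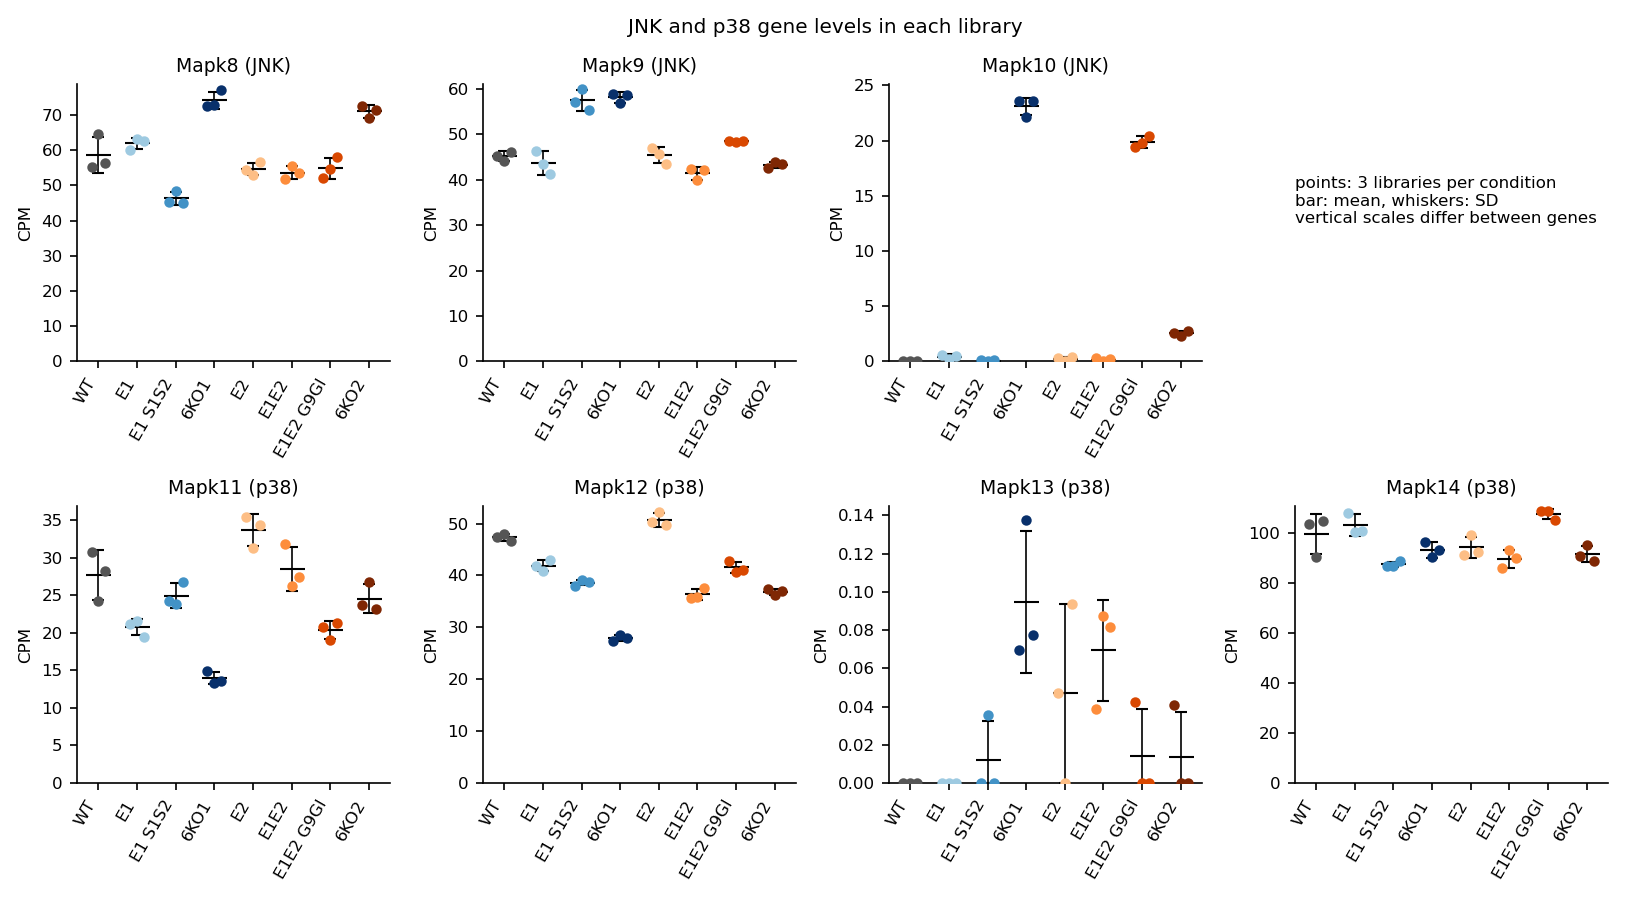
Level of the 7 genes in CPM (vertical axes, scales differ) in each of 8 conditions (horizontal axes), with 1 point per library and bars for the mean ± SD of 3 libraries. Mapk10 stands near 0 outside 6KO1, E1E2 G9Gl and 6KO2, Mapk13 stays below 0.138 CPM, and the other 5 genes are present in every library.

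Neuronal markers also differed between these conditions. The summed level of 8 such genes was 1.31 to 1.39 CPM in WT, 8.97 to 10.5 CPM in 6KO1, 34.6 to 38.01 CPM in E1E2 G9Gl and 42.9 to 44.7 CPM in 6KO2. Of these 3 lines 6KO2 thus had the highest neuronal sum and the lowest Mapk10 level. All 8 neuronal markers had at least 1 count in 6KO1 and 6KO2 and 7 in E1E2 G9Gl, where Rbfox3, a marker of mature neurons, was at 0. Rbfox3 was at 0.036 ± 0.002 CPM in 6KO1, and Syn1, which encodes a synaptic vesicle protein, held most of the 6KO1 sum at 8.58 ± 0.96 CPM. Map2, a microtubule protein gene of neurons, held most of the sums in E1E2 G9Gl (26.6 ± 0.99 CPM) and 6KO2 (29.3 ± 1.61 CPM) but was at 0.447 ± 0.183 CPM in WT and 0.096 ± 0.024 CPM in 6KO1. Snap25, a synaptic gene, was at 0 in WT, 0.155 ± 0.051 CPM in 6KO1, 2.30 ± 0.44 CPM in E1E2 G9Gl and 0.400 ± 0.078 CPM in 6KO2, so the single markers did not share 1 order. The heart and skeletal muscle list of 7 genes summed to 7.49 to 8.42 CPM in WT, 7.05 to 7.53 CPM in 6KO1, 20.7 to 24.6 CPM in E1E2 G9Gl and 17.9 to 20.1 CPM in 6KO2. Tnnt2 was at 2.28 ± 0.31 CPM in WT, 5.62 ± 0.48 CPM in 6KO1, 16.7 ± 1.58 CPM in E1E2 G9Gl and 10.3 ± 1.12 CPM in 6KO2. Actn2 was at 5.51 ± 0.64, 1.20 ± 0.23, 5.96 ± 0.58 and 8.09 ± 0.30 CPM in the same order. Myh6, a cardiac myosin, was at 0 in WT and E1E2 G9Gl. The testis germ cell list of 5 genes stayed at or below 0.521 CPM in every library. The epithelial list of 4 genes summed to 1.22 to 1.98 CPM in WT, 16.6 to 17.6 CPM in 6KO1, 7.67 to 8.19 CPM in E1E2 G9Gl and 3.84 to 4.43 CPM in 6KO2, and these 4 conditions were in the same order for Mapk10. In E1 S1S2, where Mapk10 had 6 counts, the epithelial sum was 10.1 to 12.4 CPM, and in E2, with 16 counts, 8.60 to 11.2 CPM. Krt8 held most of the epithelial sum, at 0.985 ± 0.258 CPM in WT and 16.7 ± 0.49 CPM in 6KO1. Epcam went the other way, from 0.436 ± 0.135 CPM in WT to 0.058 ± 0.072 CPM in 6KO1. Cdh1 and Krt18 were at 0.192 ± 0.034 and 0.098 ± 0.049 CPM in 6KO1, against 0.052 ± 0.023 and 0.052 ± 0.061 CPM in WT. The endothelial list of 3 genes summed to 0.436 to 0.589 CPM in WT, 3.75 to 4.34 CPM in 6KO1, 2.61 to 3.15 CPM in E1E2 G9Gl and 3.80 to 5.10 CPM in 6KO2. The immune list of 5 genes was at most 0.0397 CPM in WT, 0.657 to 1.15 CPM in 6KO1, 9.42 to 9.91 CPM in E1E2 G9Gl and 1.00 to 1.84 CPM in 6KO2, with Adgre1, a macrophage marker, at 0 in all 4. Lyz2, Ptprc and Cd3e, each at 0 in WT, were at 6.01 ± 0.44, 1.89 ± 0.10 and 1.66 ± 0.21 CPM in E1E2 G9Gl. The part of such cells in the Mapk10 counts was not tested.

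Mapk10 spans 303387 bases (chr5:102907948-103211334, minus strand, GRCm38). The 250 bases before its start (chr5:103211335-103211584, RefSeq, GRCm38.p6) are printed because this gene was the one that changed from at most 1 count in a WT library to 610 or more in 6KO1, with a cAMP response element, TGACGTCA, in capitals: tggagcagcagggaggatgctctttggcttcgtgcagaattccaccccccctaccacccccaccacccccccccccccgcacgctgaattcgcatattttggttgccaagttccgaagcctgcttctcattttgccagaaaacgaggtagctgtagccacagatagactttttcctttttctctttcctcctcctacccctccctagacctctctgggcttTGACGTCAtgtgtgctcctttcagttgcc. This motif, which ATF and CREB factors can bind, was searched on both strands and was found in 1.79% of 32851 windows that run from 250 bases before to 50 after an annotated start, and in no other member. The AP-1 motif, TGACTCA or TGAGTCA, stood in 5.20% of all windows and in none of the members. The Mapk10 stretch held 7 CpG dinucleotides, against a median of 6 in the same 250 upstream bases of all windows, and the stretch before a second annotated Mapk10 start held 2 and no such element. The upstream stretch richest in CpG held 36 in Mapk8, 14 in Mapk9, 18 in Mapk11, 11 in Mapk12, 25 in Mapk13 and 30 in Mapk14.

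Of 16 genes in the table that start within 500 kb of the Mapk10 start, 4 passed the low count filter. One of them, Gm43789 (chr5:102983842-102986313, minus strand), lies inside Mapk10 on the same strand without touching its exons, and its reads cannot be told apart from those of unspliced Mapk10 RNA. It had no count in WT, and its level was 5.84 ± 0.82 CPM in 6KO1, 4.09 ± 0.97 CPM in E1E2 G9Gl and 0.647 ± 0.034 CPM in 6KO2 (n = 3). Gm43789 thus followed the order of Mapk10, and because of its place no p-value is given for it.

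The other 3 genes lie upstream, and all 3 rose in 6KO1, E1E2 G9Gl and 6KO2 (edgeR, adjusted p at most 0.01), lines in which 35.9%, 30.9% and 29.5% of all tested genes rose. Ptpn13, which encodes a protein tyrosine phosphatase and starts 213.9 kb upstream, was at 21.6, 14.8 and 23.1 CPM in WT and at 103, 94.5 and 91.1 CPM in 6KO1, higher by 2.28 ± 0.12 on the log2 scale (SE, adjusted p = 8.32e-14 by edgeR). Unlike Mapk10, Ptpn13 was also high in E1, where its log2 fold change was 2.30 ± 0.12 (adjusted p = 1.06e-12 by edgeR), and in E2, where it was 2.37 ± 0.12 (adjusted p = 5.23e-13 by edgeR). Its lowest mutant level was 51.4 ± 0.89 CPM in E1E2 G9Gl. Aff1, a subunit gene of the super elongation complex that starts 481 kb upstream, rose from 101 ± 19.5 CPM in WT to 222 ± 17.0 CPM in 6KO1, 215 ± 8.0 CPM in E1E2 G9Gl and 219.9 ± 2.25 CPM in 6KO2. The log2 fold change of Aff1 in 6KO1 was 1.14, and 0.986 without WT replicate 2. Aff1 also rose in E2, by 0.44 ± 0.09, and in E1E2, by 0.53 ± 0.09 (adjusted p = 0.000621 and 6.13e-05 by edgeR). The third gene, 5430427N15Rik, had 5 counts in WT and 127, 82 and 55 in 6KO1, E1E2 G9Gl and 6KO2. But it rose in all 7 mutants and was at 0.826 ± 0.198 CPM in E1, 0.803 ± 0.301 CPM in E2 and 0.849 ± 0.134 CPM in E1E2, against 0.781 ± 0.308 CPM in 6KO2. Its log2 fold change in 6KO1 was 4.44, and 5.05 without WT replicate 2. Over the 24 libraries the genes whose log2(CPM + 0.1) correlated most with that of Mapk10 were Gm43789 (Pearson's r = 0.97), Vdr, the vitamin D receptor (0.97), Ces1a, a carboxylesterase (0.97), Pole4, a DNA polymerase epsilon subunit (0.97), and Ifi209, an interferon-inducible gene (0.97). Libraries of 1 condition share their clone, and 379 genes had r of at least 0.9, so this is a description. Around the p38 pairs, 7 of 28 tested genes that start within 500 kb of Mapk11 rose and 9 fell in 6KO1, and 8 rose and 6 fell of 18 within 500 kb of Mapk13, where 35.9% of all tested genes rose and 30.3% fell. The 28 include Mapk12, which fell, and the 18 include Mapk14, which neither rose nor fell.

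**Figure D2:**
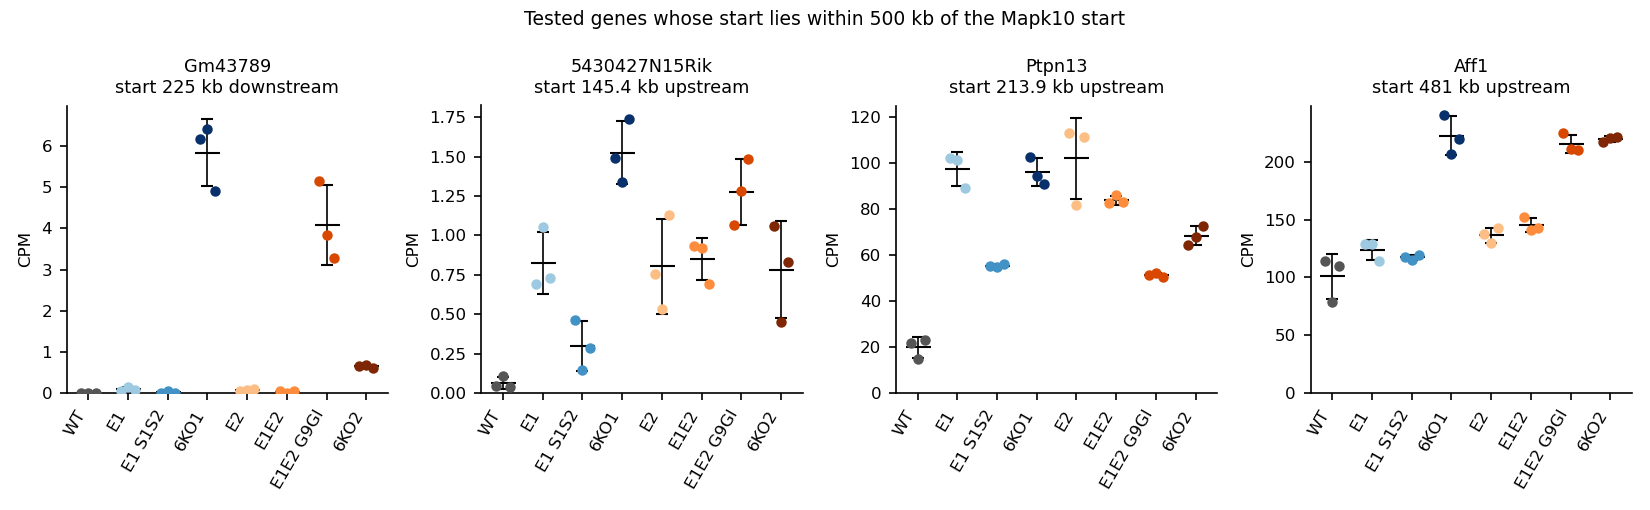
Level in CPM of the 4 genes past the low count filter that start within 500 kb of the Mapk10 start, by condition, with 1 point per library and bars for the mean ± SD of 3 libraries. Gm43789, inside Mapk10, is near 0 in 5 conditions, whereas Ptpn13 is above WT in every mutant.

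Mapk8 and Mapk9, the JNK genes most tissues use, changed by far less than Mapk10. Mapk8 was at 55.1, 64.5 and 56.4 CPM in WT, at 72.6, 72.9 and 77.0 CPM in 6KO1 and at 72.6, 69.0 and 71.4 CPM in 6KO2. Both lines lay above every other library. The log2 fold change against WT was 0.34 ± 0.06 in 6KO1 (SE, adjusted p = 1.87e-05 by edgeR) and 0.27 ± 0.06 in 6KO2 (adjusted p = 0.000289 by edgeR). Mapk8 was lowest in E1 S1S2, at 45.3, 48.4 and 45.1 CPM, where it fell against WT with a log2 fold change of -0.34 ± 0.06 (adjusted p = 3.48e-05 by edgeR). In fits to only the 6 libraries compared, its E1 S1S2 and 6KO2 calls were lost (adjusted p = 0.0162 and 0.0172 by edgeR).

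Mapk9 did not follow Mapk8. It was at 45.3, 44.1 and 46.2 CPM in WT, at 57.2, 59.97 and 55.3 CPM in E1 S1S2 and at 58.9, 56.8 and 58.8 CPM in 6KO1. Those 6 libraries lay above all others, and the log2 fold change was 0.35 ± 0.05 in E1 S1S2 (adjusted p = 4.12e-06 by edgeR) and 0.36 ± 0.05 in 6KO1 (adjusted p = 8.90e-07 by edgeR). In 6KO2 it was at 42.6, 43.9 and 43.6 CPM, with a log2 fold change against WT of -0.06 ± 0.05 (adjusted p = 0.299 by edgeR). The lines 6KO1 and 6KO2, mutated for the same 6 genes, thus differed in Mapk9 by -0.43 ± 0.05 (6KO2 over 6KO1, log2, adjusted p = 1.86e-07 by edgeR), whereas the difference in Mapk8 was -0.06 ± 0.06 (adjusted p = 0.371 by edgeR).

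Among the p38 genes, Mapk11 and Mapk12 moved most. Mapk11 was at 30.8, 24.2 and 28.2 CPM in WT and at 14.9, 13.3 and 13.6 CPM in 6KO1, the lowest of all conditions. Its log2 fold change in 6KO1 was -0.99 ± 0.09 (SE, adjusted p = 1.67e-09 by edgeR), just under the 2-fold threshold, and it crossed this threshold at -1.08 without WT replicate 2 at -1.05 without 6KO1 replicate 1 and at -1.003 without E1E2 G9Gl replicate 2 or 3. In 6KO2, Mapk11 was at 23.7, 26.7 and 23.1 CPM, which overlaps WT, and it stood above 6KO1 by 0.81 ± 0.09 on the log2 scale (adjusted p = 1.02e-07 by edgeR). E2 had the highest levels, 35.3, 31.3 and 34.3 CPM, at a log2 fold change of 0.28 ± 0.09 that missed the threshold (adjusted p = 0.0156 by edgeR). In E1E2 G9Gl Mapk11 was at 20.8, 19.0 and 21.3 CPM, below WT, at -0.44 ± 0.09 (adjusted p = 0.000164 by edgeR). The fall in E1, of -0.42 ± 0.09 (adjusted p = 0.00143 by edgeR), was lost without WT replicate 1 or E1 replicate 3 (adjusted p = 0.0115 and 0.0110 by edgeR). In fits to only the 6 libraries compared, the Mapk11 falls in E1E2 G9Gl and E1 were lost (adjusted p = 0.01095 and 0.0794 by edgeR).

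Mapk12 fell against WT in 6 of 7 mutants. It was at 47.4, 48.0 and 46.6 CPM in WT and at 27.3, 28.5 and 28.0 CPM in 6KO1, a log2 fold change of -0.76 ± 0.05 (adjusted p = 6.31e-13 by edgeR). The 6KO2 libraries, at 37.3, 36.2 and 36.9 CPM, lay between these and WT, at -0.36 ± 0.05 (adjusted p = 3.15e-07 by edgeR). In E1 the fall of -0.18 ± 0.05 (adjusted p = 0.00583 by edgeR) no longer passed when WT replicate 1, 2 or 3 was left out (adjusted p = 0.0142, 0.0110 and 0.0128), nor without E1 replicate 1 or 2 (0.0261 and 0.0336) or 6KO2 replicate 3 (0.01001), all by edgeR. E2 was the exception, at 50.2, 52.2 and 49.7 CPM, with a log2 fold change of 0.10 ± 0.05 (adjusted p = 0.0863 by edgeR). In fits to only the 6 libraries compared, the falls in E1, E1 S1S2 and E1E2 G9Gl were lost (adjusted p = 0.215, 0.0160 and 0.0503 by edgeR).

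Mapk14, the main p38 gene of most cells, varied least of the 7. Its highest library, 109 CPM, was 1.27-fold above its lowest, 86.0 CPM, against 2.65-fold in Mapk11. WT gave 104, 90.5 and 105 CPM, and 6KO1 gave 96.7, 90.3 and 93.2 CPM, which overlap. Against WT it passed the test in E1 S1S2 alone, at -0.19 ± 0.06 (adjusted p = 0.00728 by edgeR), and this call was lost in 13 of the fits that left out 1 library (WT replicate 1 or 3, E1E2 replicate 3, 6KO2 replicate 1, or any of E1 S1S2, 6KO1 or E1E2 G9Gl), with adjusted p up to 0.0516 by edgeR.

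Mapk13 was close to absent. It had 19 counts in the 24 libraries and none in 13 of them, with at most 4 in 1 library, and it did not pass the low count filter. WT and E1 had 0 counts, which allows up to 0.0391 and 0.0373 CPM (3 counts over the 3 libraries). The most, 2, 4 and 2 counts, were in 6KO1, with 1, 2 and 2 in E1E2.

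**Figure D3:**
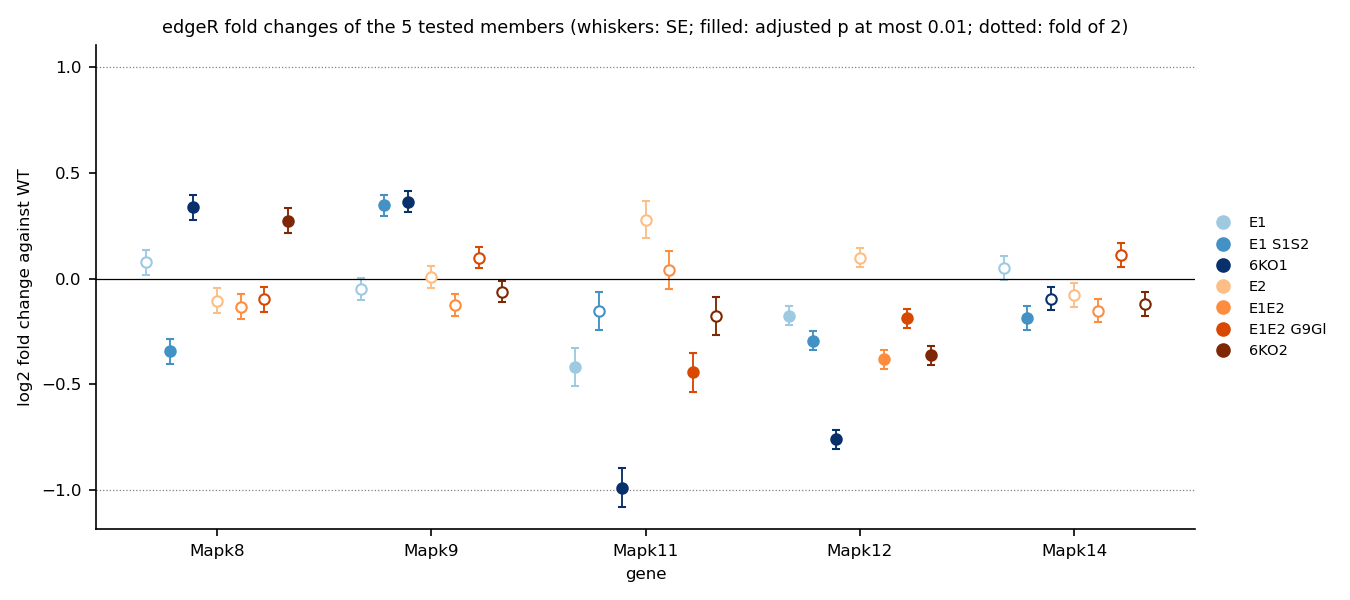
Log2 fold change against WT (vertical axis) of the 5 tested genes (horizontal axis) in 7 mutants, with whiskers for the SE and filled points where the adjusted p of edgeR was at most 0.01. Mapk11 in 6KO1, at -0.99, comes nearest to the dotted line for a 2-fold change, and Mapk12 is below 0 in all mutants but E2.

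The 5 tested genes other than Mapk10 were counted against all 18565 tested genes. A gene rose or fell where the adjusted p of edgeR was at most 0.01, and none of the 5 also changed at least 2-fold in any of 13 comparisons between conditions, by edgeR or by DESeq2. At an unadjusted p under 0.05, the number of the 5 that passed was 4 in 6KO1, where 75.8% of all tested genes did so, and also 4 in E1 S1S2 (57.3% of all genes) and E1E2 (50.9%). It was 3 in 6KO2 (68%), and 2 each in E1E2 G9Gl (70.3%), E2 (45.8%) and E1 (31.2%). In 6KO1, Mapk8 and Mapk9 rose and Mapk11 and Mapk12 fell, 4 of 5, where 66.3% of all tested genes passed and 30.9% also changed at least 2-fold. All tested genes include genes of lower count than these 5. Of 11757 genes with a mean normalized count above 100, 2280 passed and changed at least 2-fold in 6KO1, against 5731 of all 18565. In E1E2 G9Gl, 2 fell, where 59.1% of all genes passed and 25.2% also changed 2-fold. In 6KO2, 1 rose and 1 fell, against 54.5% and 20.7% of all genes. In E1 S1S2, 1 rose and 3 fell, against 41.8% and 11.8%. E1 had 2 that fell, against 13.3% and 4.26% of all genes. In E1E2, Mapk12 alone fell, against 33.1% and 8.73%, and in E2 none passed, against 26.9% and 6.11%. The median size of the log2 fold change of the 5 genes was 0.36 in 6KO1, where it was 0.64 over all genes, and 0.11 in E1E2 G9Gl, where it was 0.55. In all 7 comparisons with WT it was below the median of all genes, although in 6KO1 Mapk11 and Mapk12 each moved by more than the all-gene median.

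Pairs of lines that differ by a step in their making were also compared. Mutation of Suv39h1 and Suv39h2 in E1 (E1 S1S2 against E1) came with higher Mapk9, by 0.40 ± 0.05, and lower Mapk8, by -0.42 ± 0.06 on the log2 scale (adjusted p = 8.64e-07 and 3.39e-06 by edgeR). Mapk14 fell too (-0.24 ± 0.06, adjusted p = 0.00136, or 0.0128 without E1 replicate 1, by edgeR), so that 3 of 5 passed, where 33.5% of all genes passed and 8.06% also changed 2-fold. The same step in E1E2 G9Gl (6KO2 against E1E2 G9Gl) went the other way for Mapk8, which rose by 0.37 ± 0.06 (adjusted p = 1.12e-05 by edgeR). Mapk9 was at -0.16 ± 0.05 there (adjusted p = 0.0106 by edgeR). In that pair Mapk12 and Mapk14 fell, against 43.6% and 16.3% of all genes, and the fall of Mapk12 (-0.17 ± 0.05, adjusted p = 0.00252 by edgeR) was lost without E1E2 G9Gl replicate 1, 6KO2 replicate 2 or 6KO2 replicate 3 (adjusted p = 0.0187, 0.0136 and 0.01005 by edgeR). The difference between the steps was itself tested, and it was 0.79 ± 0.08 for Mapk8 and -0.56 ± 0.07 for Mapk9 (adjusted p = 3.87e-08 and 8.45e-07 by edgeR), with 39.2% of all genes passing this test.

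From E1 S1S2 to 6KO1, Mapk8 rose by 0.68 ± 0.06 while Mapk11 fell by 0.84 and Mapk12 by 0.47 on the log2 scale (adjusted p at most 4.36e-08 by edgeR). Here 3 of 5 passed, where 53.4% of all genes passed and 21.3% also changed 2-fold. From E1E2 to E1E2 G9Gl, Mapk9, Mapk12 and Mapk14 rose and Mapk11 fell, 4 of 5, where 53.4% of all genes passed and 21.6% also changed 2-fold. Mapk11 was at -0.48 ± 0.09 and Mapk12 at 0.19 ± 0.05 on the log2 scale (adjusted p = 7.04e-05 and 0.000781 by edgeR). Both of these steps added mutation of G9a and Glp, the first together with Eset2, and each gave a new clone. Mapk11 fell in both, whereas Mapk12 fell in the first and rose in the second. The part of the mutated genes and that of the clone cannot be told apart here. Between 6KO2 and 6KO1, Mapk11 and Mapk12 were higher and Mapk9 lower in 6KO2, against 49.2% and 16.9% of all genes. Treatment of the E2 clone with 4-OHT (E1E2 against E2) lowered Mapk12 alone (log2 fold change -0.48 ± 0.05, adjusted p = 5.99e-08 by edgeR), where 11.9% of all genes passed and 2.97% also changed 2-fold. In the parental clone the same treatment gave -0.18 ± 0.05, and the difference between the clones was -0.30 ± 0.06 (adjusted p = 0.00165 by edgeR), in a test that 8.88% of all genes passed. Without the low count filter its adjusted p was 0.0703 by edgeR.

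Counts divided by the merged exon length (CPM per kb, here RPKM) allow levels to be compared between genes. In WT the order was Mapk14 at 22.8 ± 1.83, Mapk12 at 12.4 ± 0.18, Mapk11 at 9.60 ± 1.15, Mapk9 at 6.67 ± 0.15, Mapk8 at 5.13 ± 0.44, Mapk10 at 0.0023 ± 0.0020 and Mapk13 at 0 RPKM (SD, n = 3), and only Mapk10 and Mapk13 overlapped with a neighbour in that order. In 6KO1 Mapk9 stood second at 8.57 ± 0.17, ahead of Mapk12 at 7.34 ± 0.15 and Mapk8 at 6.48 ± 0.22, and Mapk11 followed at 4.83 ± 0.28 RPKM, with no overlap between neighbours. These orders hold for the merged exon length. With the longest transcripts, of 5756 bases in Mapk8, 4682 in Mapk9 and 1928 in Mapk12, the order changes. Mapk8 would then stand ahead of Mapk9 in WT, and Mapk12 ahead of Mapk9 in 6KO1. Mapk10 reached 2.08 ± 0.07 RPKM there and stayed below the other 5 expressed genes. Its share of the reads per length of the 3 JNK genes reached 13.0% ± 0.06 in E1E2 G9Gl and 12.1% ± 0.22 in 6KO1, against 1.79% ± 0.13 in 6KO2 and at most 0.318% ± 0.16 in the other 5 conditions.

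The sum of Mapk8 and Mapk9 was 11.8 ± 0.32 RPKM in WT and 15.1 ± 0.32 RPKM in 6KO1, with no overlap. A two-sided exact permutation test of 3 against 3 libraries cannot go below 0.1, the value it gave here (0.233 after Benjamini-Hochberg adjustment over 7 mutants). The sum of the 4 p38 genes was 44.8 ± 2.76 RPKM in WT and 33.5 ± 0.83 RPKM in 6KO1 (exact p = 0.1, adjusted 0.175). Mapk11 made up 21.4% ± 1.35 of the p38 sum in WT, 14.4% ± 0.49 in 6KO1, 16.6% ± 0.89 in E1E2 G9Gl and 25.05% ± 1.82 in E2 (exact p = 0.1 for each, adjusted 0.14). Its share of 21.7% ± 0.98 in 6KO2 overlapped with that of WT (exact p = 0.9). By merged exon length, Mapk14 was the main p38 gene in every condition, from 46.3% ± 1.502 in E2 to 63.6% ± 0.61 in 6KO1. With the longest transcripts, of 1928 bases in Mapk12 and 3592 in Mapk14, these genes would be about equal in E2.

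**Figure D4:**
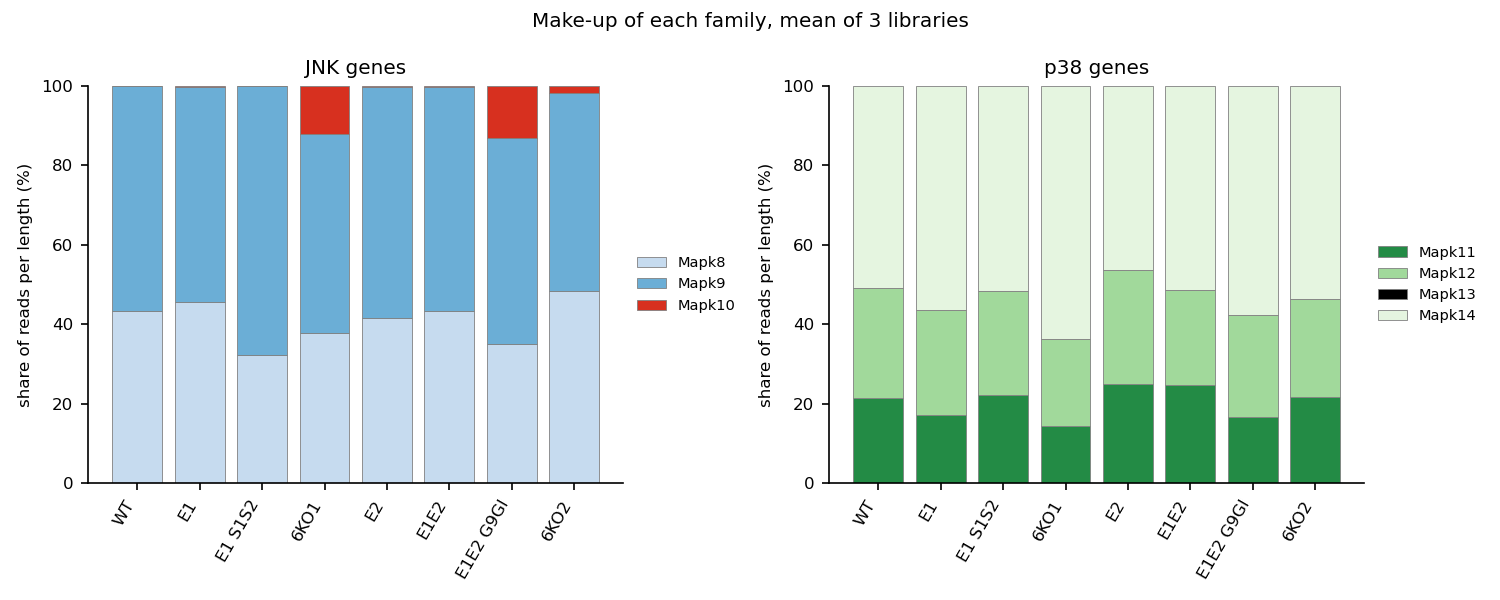
Share of each gene in the reads per length of its family (vertical axes, percent, mean of 3 libraries) in each condition. Mapk10 is visible in 6KO1 at 12.1%, E1E2 G9Gl at 13.0% and 6KO2 at 1.79% of the JNK reads, and the Mapk11 part of the p38 reads is smallest in 6KO1 at 14.4%.

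The other genes of the pathway were taken from 7 lists of 70 genes in all. Their counts stand against shares of all tested genes of 35.9% that rose and 30.3% that fell in 6KO1. For E1E2 G9Gl these shares were 30.9% and 28.3%, and for 6KO2 they were 29.5% and 25%. Without WT replicate 2 they were 35.5% and 29.2% for 6KO1, 31.0% and 26.7% for E1E2 G9Gl, and 28.8% and 23.4% for 6KO2. Of the 4 MAP2K genes, which phosphorylate JNK and p38, 2 rose and 1 fell in 6KO1, with a median log2 fold change of 0.19 against 0.06 over all tested genes. The one that fell was Map2k6, an activator of p38, at 4.17, 4.36 and 4.72 CPM in WT and 1.01, 1.38 and 1.24 CPM in 6KO1, a log2 fold change of -1.87 ± 0.19 (adjusted p = 1.80e-08 by edgeR). In E1E2 G9Gl it had 0 counts in all 3 libraries, which is at least 95.6-fold lower than the 339 counts of WT, taking 3 counts over the group as the limit. In 6KO2 Map2k6 was at 0.899, 1.72 and 1.83 CPM. Of the 4 MAP2K genes, 1 rose and 2 fell in E1E2 G9Gl (median -0.18), and 2 rose and 2 fell in 6KO2 (0.097).

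Of the 17 MAP3K genes, which start the cascade, 12 rose and 1 fell in 6KO1 (median log2 fold change 0.38), 8 rose and 4 fell in E1E2 G9Gl (0.06) and 6 rose and 3 fell in 6KO2 (0.06). Without WT replicate 2 the numbers were 9 and 3 (0.26), 8 and 5 (0.03) and 6 and 5 (-0.03), Map3k5 in 6KO2 among the added falls (adjusted p = 0.0134 with and 0.00242 without it, by edgeR). Map3k9 (MLK1), which acts towards JNK, was at 1.01, 0.397 and 0.991 CPM in WT, 8.02, 6.77 and 6.53 CPM in 6KO1 and 8.66, 9.35 and 8.55 CPM in 6KO2, so that 6KO1 and 6KO2 both lay above WT without overlap. Its log2 fold change in 6KO1 was 3.17 ± 0.27 (adjusted p = 4.79e-10 by edgeR). Map3k8 (Tpl2) and Taok3 rose too, by 1.78 ± 0.25 and 1.32 ± 0.08. Map3k5 (ASK1), which responds to oxidative stress, went the opposite way, with 245 counts in WT, 3 in 6KO1 and 1 in E1E2 G9Gl, ratios to WT of 0.0112 (95% exact interval 0.0023 to 0.0332) and 0.0048 (0.00012 to 0.0271). In 6KO2 Map3k5 had 147 counts, or 2.12 ± 0.17 CPM. Map2k6 and Map3k5 thus shared with Mapk10 that 6KO2 lay between WT and E1E2 G9Gl.

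**Figure D5:**
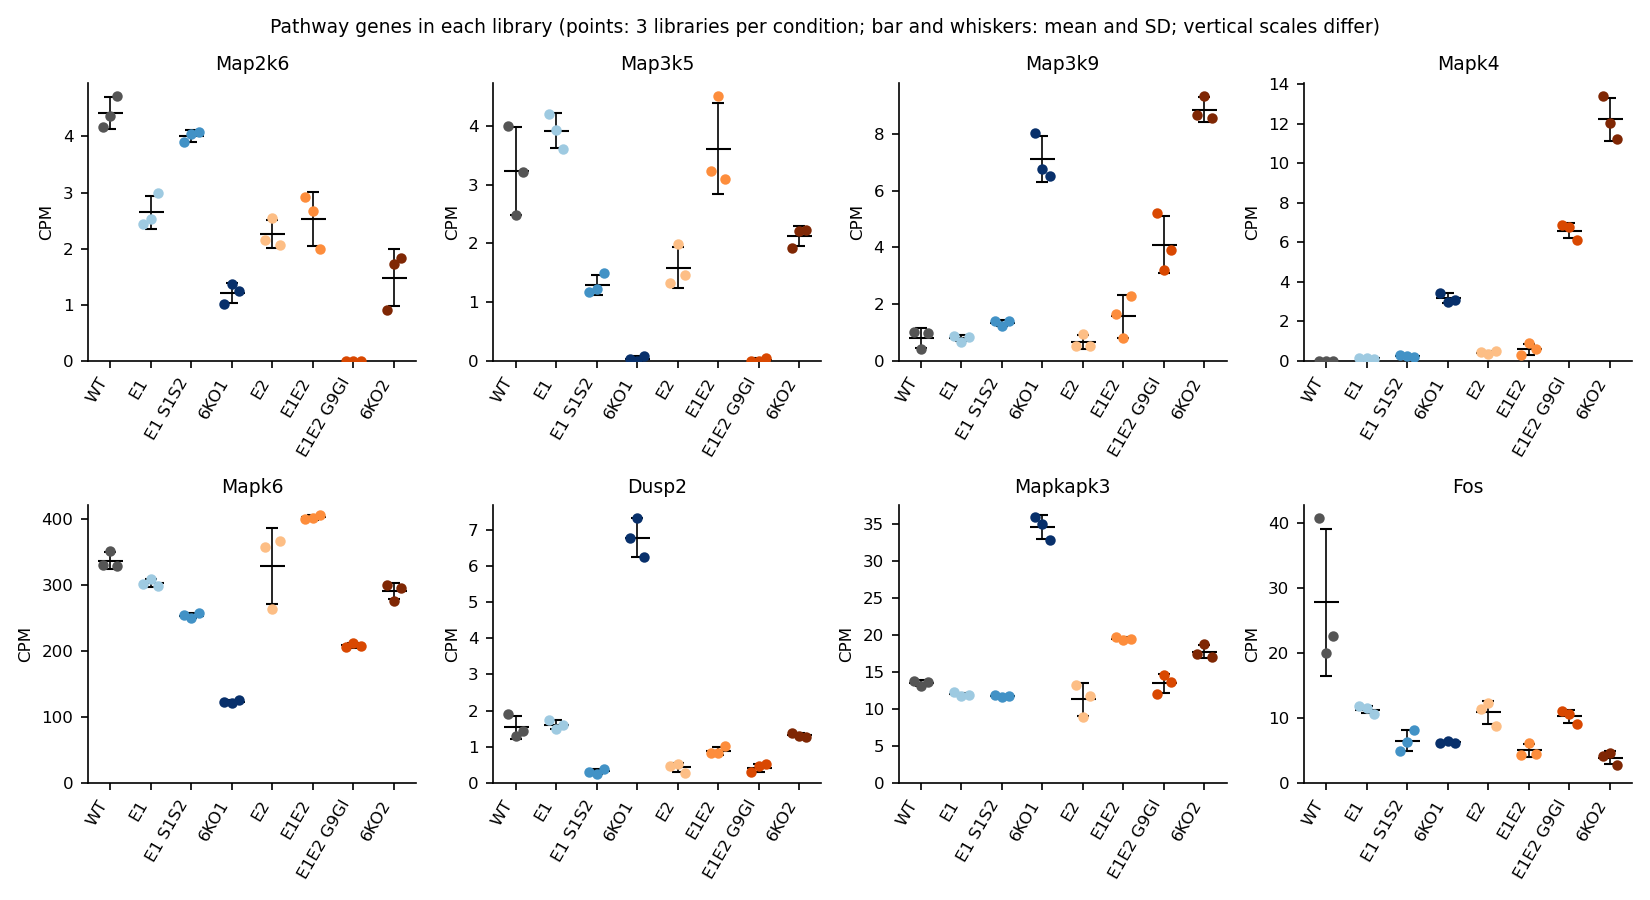
Level in CPM (vertical axes, scales differ) of 8 pathway genes by condition, with 1 point per library and bars for the mean ± SD of 3 libraries. Map2k6 and Map3k5 are at or near 0 in E1E2 G9Gl and present in 6KO2, and Mapk4 is at 0 in WT and highest in 6KO2 at 12.2 CPM.

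Of 10 scaffold and partner genes, 9 were tested, and 5 rose and none fell in 6KO1 and in 6KO2 (median log2 fold change 0.36 and 0.19). Without WT replicate 2, 4 rose in 6KO2, with a median of 0.11. In E1E2 G9Gl 2 of these genes rose and 3 fell (median 0.04), or 2 and 4 without WT replicate 2 (-0.03). Gadd45b, an activator of MAP3K4, was the one that rose over 2-fold, in 6KO2 alone, from 41.3 ± 5.22 CPM in WT to 103.5 ± 5.81 CPM (log2 fold change 1.32 ± 0.10, adjusted p = 1.18e-10 by edgeR). Of 9 phosphatase genes, 7 rose and 1 fell in 6KO1 (median 0.39) and 6 rose in 6KO2 (0.49), and without WT replicate 2 the number that rose in 6KO1 was 6. In E1E2 G9Gl 4 phosphatase genes rose and 2 fell (median 0.28), or 4 and 3 without WT replicate 2 (0.23). Dusp2, a nuclear phosphatase of MAP kinases, was at 1.89, 1.30 and 1.43 CPM in WT and at 6.77, 7.32 and 6.26 CPM in 6KO1, a log2 fold change of 2.15 ± 0.15 (adjusted p = 8.44e-12 by edgeR), whereas it fell in E1 S1S2 by 2.26 and in E1E2 G9Gl by 1.86 on the log2 scale (adjusted p = 1.77e-08 and 2.06e-07 by edgeR).

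Of 7 kinases downstream of p38, 4 rose in 6KO1 and E1E2 G9Gl and 5 rose in 6KO2 (median log2 fold change 0.34, 0.27 and 0.27). None fell, but without WT replicate 2 the number that fell in 6KO1 was 1 and the number that rose in 6KO2 was 4. Mapkapk3 (MK3) was at 13.8, 13.1 and 13.7 CPM in WT and at 36.0, 35.0 and 32.8 CPM in 6KO1, by 1.35 ± 0.09 on the log2 scale (adjusted p = 9.04e-12 by edgeR), and at -0.01 ± 0.10 in E1E2 G9Gl (adjusted p = 0.938 by edgeR). Rps6ka5 (MSK1), a histone H3 kinase, rose in all 3 lines, by 1.17 ± 0.10, 1.68 ± 0.10 and 1.12 ± 0.10.

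Of 16 transcription factor substrates and AP-1 genes, 6 rose and 5 fell in 6KO1 (median 0.07), 4 rose and 9 fell in E1E2 G9Gl (-0.22) and 7 rose and 5 fell in 6KO2 (0.17). These shares in 6KO1 were near those of all genes, and without WT replicate 2 the numbers were 5 and 5 (0.05), 4 and 8 (-0.22) and 7 and 4 (0.05). Fos was at 40.8, 20.1 and 22.6 CPM in WT, where replicate 1 stood above the others, and at 6.18, 6.46 and 6.22 CPM in 6KO1, and all 21 mutant libraries lay below the lowest of WT. It fell by 2.14 on the log2 scale in 6KO1 and fell by 2.85 in 6KO2 (adjusted p = 8.14e-09 and 4.69e-10 by edgeR). Fosb, at 51.7, 17.4 and 22.0 CPM in WT, also rested on WT replicate 1 for its size: it fell by 2.03 in 6KO1, or fell by 1.41 without that library (adjusted p = 3.04e-07 by edgeR). Fosl2 fell by 1.26 in 6KO1, whereas Junb rose by 1.05 ± 0.11 and Ddit3 (CHOP), a p38 substrate, by 1.11 ± 0.06.

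The 7 other MAP kinases include 6 that were tested, of which 3 rose and 1 fell in 6KO1. Mapk4 (ERK4), an atypical MAP kinase, had 0 counts in all WT libraries and 99, 87 and 80 counts in those of 6KO1 (3.17 ± 0.23 CPM), 6.59 ± 0.39 CPM in E1E2 G9Gl and 12.2 ± 1.10 CPM in 6KO2. It was at least 81.2-fold, 169-fold and 313-fold higher than the limit of 3 counts over the WT libraries, so that it was silent in WT like Mapk10 but highest in 6KO2. Mapk6 (ERK3), its nearest relative, fell from 337 ± 12.8 CPM in WT to 123 ± 2.25 CPM in 6KO1, by 1.45 on the log2 scale (adjusted p = 1.05e-13 by edgeR), and was at 290.6 ± 12.5 CPM in 6KO2 (log2 fold change -0.21 ± 0.08, adjusted p = 0.0196 by edgeR).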

How the data were processed

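Total RNA libraries (TruSeq stranded, paired reads of 75 bases) were made by the authors from the 24 MEF samples. Per the labels and the study's methods, reads were trimmed with cutadapt 1.8.1, aligned to GRCm38 with STAR 2.5.2b and counted with TEtranscripts, and the counts deposited by the authors are whole reads per gene without normalization. The strand setting of the counting is not given in the sources used here. Rows that are no gene (1446) were left out. Genes were matched by Ensembl ID.

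From these counts, edgeR 4.0.16 (R 4.3.3) was fitted to all 24 libraries with TMM factors, 1 coefficient per condition and the quasi-likelihood test, on the 18565 genes that passed filterByExpr, with Benjamini-Hochberg adjustment in each comparison. Of the 7 genes 6 passed this filter, and Mapk13 did not. A gene rose or fell at an adjusted p of at most 0.01, and was also counted at a fold change of at least 2. In simulated counts for 6KO1 against WT on 16348 genes, edgeR recovered 73 of 100 genes changed 2-fold and 83 of 100 changed 4-fold, with 2 false calls. Changed genes that did not pass the filter counted as missed. No other gene was changed in the simulation, whereas 66.3% of tested genes passed in 6KO1. It therefore does not show how edgeR does where most genes change. Levels per length were divided by merged exon length. Shares and sums were compared by two-sided exact permutation tests, and counts of Mapk10 by exact 95% intervals, which cover counting error only.

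The genes and the lists were chosen with earlier results of these data known. Up to 3 genes per list and direction were named, those with the largest log2 fold change in 6KO1 among those past both thresholds, or up to 2 from another line where 6KO1 had none, with tested genes within 500 kb of Mapk10 and the 5 genes most correlated with it. Same-numbered libraries did not deviate together (correlations from -0.29 to 0.24), so numbers were not taken to pair samples. Alternatives were DESeq2 1.42.0, RLE factors, other filters, fits to 6 libraries, a replicate block, other gene lengths, pooled counts and leaving out each library. The fits without WT replicate 2 for the lists and without WT replicate 1 for their named genes, and the alternatives for the Mapk10 ratios, were added after the data were seen.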

Additional observations from a re-analysis of the deposited data

Results flagged for a closer look

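In 3 cases the same step changed a gene differently in different lines, by a test of the difference itself. For Mapk12 the log2 change with 4-OHT in the E2 clone minus that in the parental clone was -0.30 ± 0.06 (SE, adjusted p = 0.00165 by edgeR), a call that was lost without the low count filter (adjusted p = 0.0703 by edgeR). For Mapk8 the log2 change with mutation of Suv39h1 and Suv39h2 in E1E2 G9Gl minus that in E1 was 0.79 ± 0.08 (adjusted p = 3.87e-08 by edgeR). For Mapk9 the latter difference was -0.56 ± 0.07 (adjusted p = 8.45e-07 by edgeR). Each line is 1 clone, and the part of the clone in these differences was not tested.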

How the results depend on the processing

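Of 35 tests in which 1 of the 5 tested genes passed the adjusted p, none changed sign under any alternative run. DESeq2 and the replicate block lost 0 of the 35 calls, RLE factors and a mean normalized count above 100 lost 1 each, no low count filter lost 8, and fits to 6 libraries alone lost 8 of 32. The calls lost in fits to 6 libraries, all against WT, were Mapk8 in E1 S1S2 and 6KO2 and Mapk11 in E1 and E1E2 G9Gl. Mapk12 in E1, E1 S1S2 and E1E2 G9Gl and Mapk14 in E1 S1S2 were the rest. Leaving out 1 library lost 25 of 840, mostly Mapk14 in E1 S1S2 and Mapk12 in E1. The number of genes past both thresholds in 6KO1 against WT was 0, 1 without a low count filter, and from 0 to 1 without 1 library (Mapk11). Without that filter the number of genes with a different 4-OHT effect was 0, with Mapk12 at an adjusted p of 0.0703 by edgeR. With no fold change minimum the numbers against WT were 4 for 6KO1 and E1 S1S2, 2 for 6KO2, E1E2 G9Gl and E1, and 1 for E1E2, and between lines 3 for E1 S1S2 over E1, 3 for 6KO1 over E1 S1S2, 1 for E1E2 over E2, 4 for E1E2 G9Gl over E1E2, 3 for 6KO2 over E1E2 G9Gl and 3 for 6KO2 over 6KO1. With the length of the longest transcript, the Mapk10 share of JNK reads per length was 12.2% (E1E2 G9Gl), 11.2% (6KO1) and 1.62% (6KO2). The Mapk11 share of p38 reads was then lowest at 11.6% (6KO1), followed by 13.1% (E1E2 G9Gl), 13.6% (E1), 16.8% (WT), 17.3% (6KO2), 17.7% (E1 S1S2), 19.7% (E2) and 19.9% (E1E2). The ratio of Mapk10 to WT rests on 2 WT counts, and without 1 library it ranged from 611 to 1188 in 6KO1. Over all genes, a mean normalized count above 100 gave 2280 genes past both thresholds in 6KO1 against 5731, and 1353 in 6KO2 against 3848, with fewer genes tested. Fits to 6 libraries, with fewer samples, gave fewer genes past the adjusted p in every comparison with WT. The number was 775 in E1 against 2474, 1180 in E2 against 5003 and 6394 in 6KO2 against 10117. Between mutant lines it was mostly higher, as for 6KO1 over E1 S1S2 (10928 against 9905), and lower for E1E2 over E2 alone (1696 against 2216). The fit to all libraries takes 1 spread per gene for all conditions, and the part of the spread in WT was not tested.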
